A study of Mus musculus with 32 samples.

Results

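The high dose of disulfiram (DSF) on the standard diet (SD) was set against SD alone in the livers of 9 of the series' 30 mice, 4 with the drug (SDH) and 5 without (SD). The SDH mice were numbers 13, 14, 15 and 17, and the SD mice were numbers 1 to 5. SD 1 was measured on 2 arrays, which were averaged (Pearson's r across probes 0.997). SDH 16 was left out because its array detected 6.56% of the probes at p under 0.05, below the limit of 35%. All were male C57BL/6J mice on AIN-93G food, with 64% of energy from carbohydrate, 19% from protein and 17% from fat. The SDH food held 2 g/kg DSF, for about 200 mg/kg body weight per day, and the SD food held none. Mice started the diets at 16 weeks of age, ate freely and were not fasted before the livers were taken. The labels give an age of 56 weeks with 40 weeks on the diet, and the protocol gives an age of 58 weeks. The dose comparison used 5 mice with 1 g/kg DSF in SD food (SDL, about 100 mg/kg per day). The diet comparison used 4 mice with 2.67 g/kg DSF in high-fat food (HFDH, about 200 mg/kg per day) and 5 mice on that food alone (HFD), with 16% of energy from carbohydrate, 23% from protein and 61% from fat. Another 4 mice, with 2.33 g/kg DSF in the high-fat food (HFDL, about 100 mg/kg per day), were in the fit but in no comparison.

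DSF is an inhibitor of aldehyde dehydrogenase given for alcohol dependence. It is reduced in the body to diethyldithiocarbamate, which binds copper and zinc. The liver answers many foreign compounds through the nuclear receptors CAR and PXR, which switch on cytochromes P450 and conjugating enzymes. Electrophiles and heavy metals act through other sensors, NRF2 for glutathione enzymes and MTF1 for metallothioneins. Hepatic fat and sterol synthesis are driven by the SREBP factors, SREBP1 mainly for fatty acids and SREBP2 mainly for cholesterol.

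The arrays of the 9 mice were of like brightness, with 46.3 to 52.7% of the probes detected and a median signal of 57 to 73 intensity units. Signals of single mice are given below on a common scale of normalized intensity, in the order SDH 13, 14, 15 and 17 and SD 1 to 5. Hepatocyte markers were bright, with summed signals of 188000 to 258000 in the SDH mice and 154000 to 196000 in the SD mice. The probe for albumin, Alb, was an exception at 74.1 to 106 in the SDH mice and 49.3 to 64.9 in the SD mice. Pancreatic acinar transcripts, which belong to the exocrine pancreas, stood out in SDH 17, SD 2 and SD 4. Of the 31 acinar genes on the array, all 31 were detected in SDH 17 with a sum of 136000, 27 in SD 2 with 19500 and 20 in SD 4 with 6310. The other 3 SDH mice had 6 or 7 detected with sums of 4050 to 4590, and the other 3 SD mice had 6 or 7 with sums of 3990 to 4990. The acinar genes Clps, Reg1 and Cela2a stood at 11500, 11200 and 13400 in SDH 17 and at 1210, 535 and 2380 in SD 2. None of the 8 islet genes on the array was detected in any of the 9 mice. SD 5 stood apart from the other SD mice on many of the genes below, and its median correlation with its group was 0.969, against 0.956 for SDH 17 and 0.982 or more for the other 7.

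**Figure D1:**
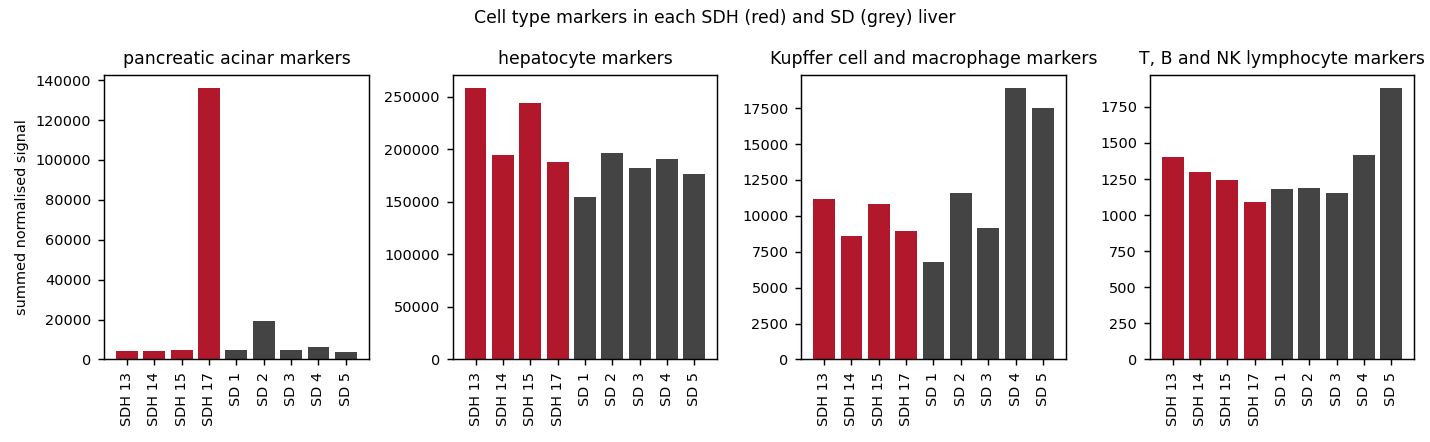
Summed signal of cell type markers (normalized intensity units) for each mouse, SDH mice left of SD mice, in 4 panels for pancreatic acinar, hepatocyte, Kupffer cell and lymphocyte genes. The acinar sum of SDH 17 was 136000 and that of SD 2 was 19500, and the highest Kupffer sums were those of SD 4 (18900) and SD 5 (17500).

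High-dose DSF changed the expression of 705 of 9972 genes tested, or 7.07%, with 280 higher (2.81%) and 425 lower (4.26%) in SDH mice at an adjusted p under 0.05. The change was 2-fold or more for 51 of the higher genes (0.511%) and 36 of the lower genes (0.361%). All 4 SDH mice lay above all 5 SD mice for 293 genes (2.94%) and below them for 462 (4.63%), and 183 genes (1.84%) did not overlap and passed the test both with and without the mice SDH 17 and SD 2, 80 higher (0.802%) and 103 lower (1.03%). The 15 largest rises and 15 largest falls named below were taken from these 183 genes. That their groups do not overlap follows from this choice. The spread in this test was shared by 27 mice of 6 groups, and with the 9 mice alone 62 genes were higher (0.682%) and 61 lower (0.671%). Without SDH 17 and SD 2, 153 genes were higher (1.55%) and 187 lower (1.9%), or 3.45% in all. Of these, 260 genes (2.61% of those tested) were among the 705. The counts higher and lower were 181 and 288 without SD 1, 130 and 203 without SD 2, and 140 and 205 without SDH 15, and 231 genes passed in every fit that left out a single mouse. With SDH 16 and 2 other arrays of low detection added back, 0 genes were higher and 7 were lower. The SDH 16 array had a highest signal of 60 and a median correlation of -0.00984 with the other arrays. It carried almost no liver signal, so that fit says little about the drug.

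**Figure D2:**
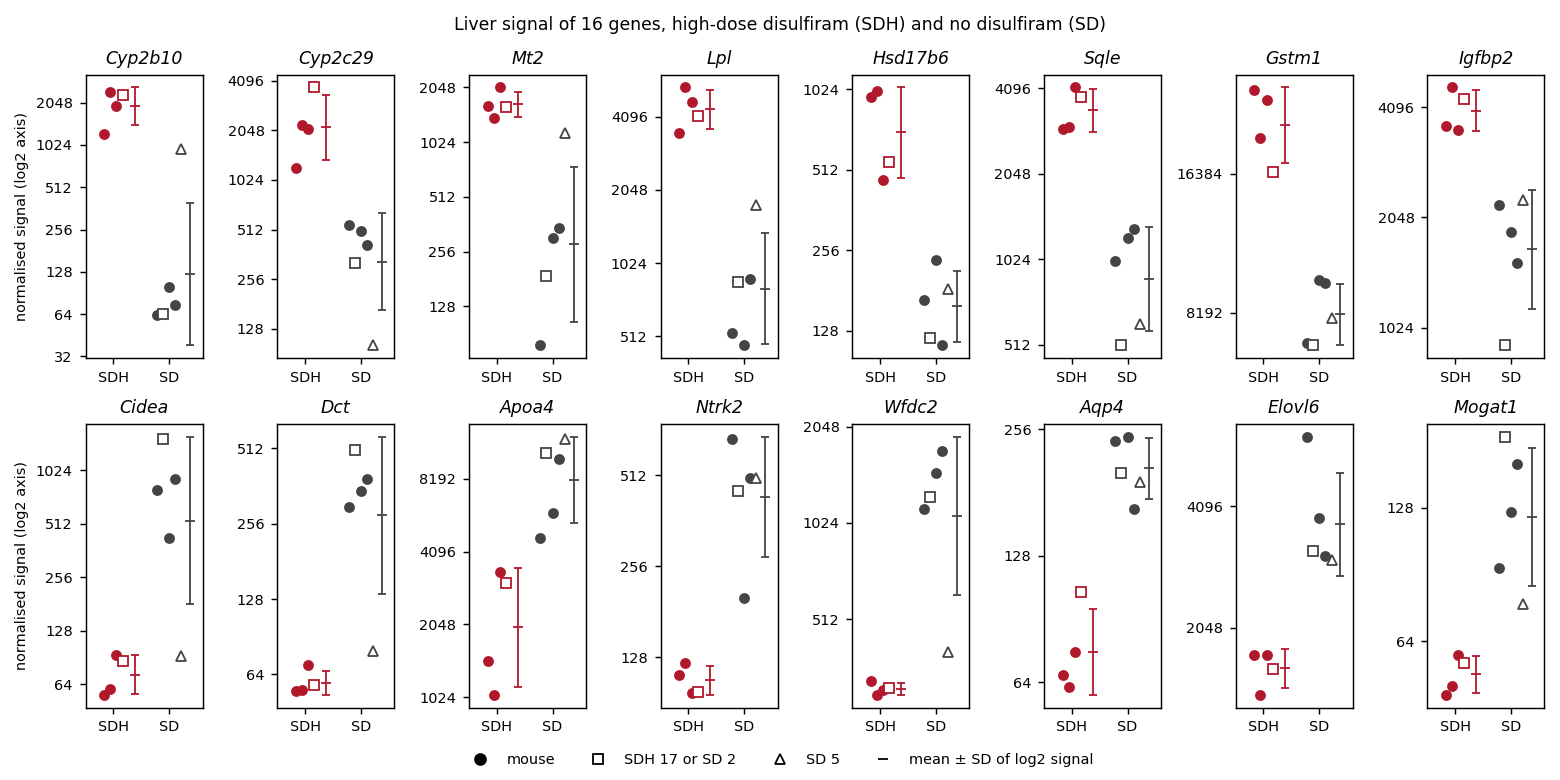
Normalized intensity (log2 axis) of 16 genes in each SDH mouse (left) and SD mouse (right) with the mean and SD of the log2 values. Squares mark SDH 17 and SD 2 and the triangle SD 5, which was the highest SD mouse for Cyp2b10 (960) and Mt2 (1150).

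The largest rise among genes whose mice did not overlap was that of Cyp2b10, a cytochrome P450 and the classical target of CAR in mouse liver. Its signal was 1230, 2440, 1950 and 2320 in the SDH mice, against 63.3, 63.8, 99.4, 74.1 and 960 in the SD mice. Every SDH mouse was above every SD mouse, and SD 5 was well above the other 4 SD mice. The rise was 15.6-fold (log2 fold change 3.96 ± 0.54 (SE), adjusted p = 8.4e-05), and the probe was detected in 4 of 4 SDH mice and 3 of 5 SD mice. The log2 fold change was 2.2 as the mean of its detected probes, 4.7 after neqc, 4.69 without SD 5 and 3.3 without SDH 17, SD 2 and SD 4. Cyp2c29, another CAR-responsive P450, had signals of 1210, 2220, 2080 and 3730 in the SDH mice, against 544, 321, 499, 412 and 102 in the SD mice. Here SD 5 was the lowest of all (log2 fold change 2.71 ± 0.35 (SE), adjusted p = 6.9e-05). In a fit of the SDH and SD mice alone without SDH 17 and SD 2, neither Cyp2b10 (adjusted p = 0.075) nor Cyp2c29 (0.066) passed. Cyp2c55, a further P450 of that family, stood at 344, 447, 419 and 718 in the SDH mice, against 128, 99.3, 115, 106 and 163 in the SD mice, with no overlap (log2 fold change 1.95 ± 0.30 (SE), adjusted p = 0.00055). Cyp2b23 rose as well (log2 fold change 1.68, adjusted p = 0.014), but not without SDH 17 and SD 2 (adjusted p = 0.056).

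Of 31 P450 genes of families 1 to 3 that were tested, 7 rose and 0 fell (22.6% and 0.0%, against 2.81% and 4.26% of all genes). Their median log2 fold change was 0.29, against -0.04 over all genes. These families hold the enzymes that oxidise drugs and steroids. Cyp2c50 signals were 14300, 14100, 15700 and 10700 in the SDH mice, against 7800, 8540, 10700, 8270 and 1520 in the SD mice, so that only SD 5 was far below the rest of its group (log2 fold change 1.14, adjusted p = 0.039). Cyp2c37 had the same shape, at 18100, 16800, 19200 and 12500 in the SDH mice, against 10700, 11500, 12300, 10000 and 2130 in the SD mice (log2 fold change 1.04, adjusted p = 0.044). Neither passed without SDH 13, SDH 14 or SDH 15, with adjusted p of up to 0.10 for Cyp2c50 and 0.12 for Cyp2c37, and the count for the list was then 4, as it was after neqc. Cyp3a11, a main target of PXR, was 12600 to 14300 in SDH 13 to 15 but 6930 in SDH 17, against 6670 to 13700 in the SD mice (log2 fold change 0.39, adjusted p = 0.22). Cyp1a2, a target of the aryl hydrocarbon receptor, had a log2 fold change of 0.69 (adjusted p = 0.078), and 0.038 without SDH 17 and SD 2. Cyp2b10 and Cyp2b23, Cyp2c50 and Cyp2c37, and Gsta1 and Gsta2 below are close copies, and how far each probe told its copy apart was not tested.

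Glutathione S-transferases couple electrophiles to glutathione. Of 22 tested, 7 rose (31.8%, against 2.81% of all genes), 0 fell (against 4.26%) and 15 did not pass. The median log2 fold change was 0.44, though 2 others of the list were called lower after quantile normalization or neqc. Gsta1 stood at 2580, 2160, 1840 and 2050 in the SDH mice, against 172, 314, 516, 498 and 1240 in the SD mice (log2 fold change 2.27, adjusted p = 0.016). Gsta2 stood at 3100, 2470, 1510 and 2040 in the SDH mice, against 303, 412, 699, 599 and 1120 in the SD mice, and SD 5 was again nearest to the SDH mice (log2 fold change 1.96 ± 0.44 (SE), adjusted p = 0.009). Gstm1, an abundant mu-class enzyme, was at 24800, 19600, 23600 and 16500 in the SDH mice, against 7070, 7000, 9640, 9530 and 7970 in the SD mice (log2 fold change 1.35 ± 0.17 (SE), adjusted p = 4.3e-05). No SDH mouse came near the SD range. Gstm4 was 1070, 1000, 1000 and 957 in the SDH mice, against 543, 436, 516, 610 and 514 in the SD mice (log2 fold change 0.95, adjusted p = 0.0019). Gsto1, of the omega class, was 5870, 5180, 4060 and 3960 in the SDH mice, against 2960, 2720, 3310, 3110 and 2670 in the SD mice (log2 fold change 0.68, adjusted p = 0.0021). Gsta4, which acts on lipid aldehydes, rose too (log2 fold change 0.96, adjusted p = 0.013). Gsta1 and Gsta4 did not pass without SDH 17 and SD 2, with adjusted p of 0.065 and 0.06. Gstp1 stood at 17400 to 26900 in SDH mice and 14700 to 21400 in SD mice and did not pass (log2 fold change 0.36, adjusted p = 0.48).

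The 25 tested NRF2 target genes had a median log2 fold change of 0.34. Of these, 3 rose and 1 fell (12.0% and 4.0%, against 2.81% and 4.26% of all genes). The 3 were Prdx1, a peroxiredoxin (log2 fold change 0.44, adjusted p = 0.047), Gclm, a subunit of the enzyme that makes the glutathione precursor (log2 fold change 0.41, adjusted p = 0.049), and Txnrd1, a thioredoxin reductase (log2 fold change 0.39, adjusted p = 0.036). Nfe2l2, which encodes NRF2 itself, was 199 to 279 in SDH mice and 268 to 359 in SD mice (log2 fold change -0.43, adjusted p = 0.024). The standard NRF2 readouts Nqo1 (log2 fold change 0.15, adjusted p = 0.66) and Hmox1 (log2 fold change -0.11, adjusted p = 0.85) did not pass. None of the 3 rises stood without SD 1 or without SD 2. Prdx1 was also lost without SD 3, SD 4, SD 5, SDH 13 or SDH 15 (adjusted p up to 0.17), Gclm without SD 4, SD 5, SDH 13, SDH 14 or SDH 15 (up to 0.14) and Txnrd1 without SD 3, SDH 15 or SDH 17 (up to 0.12). The fall of Nfe2l2 was lost without SD 2, SDH 13, SDH 14 or SDH 15 (up to 0.073).

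Among 26 tested enzymes that conjugate glucuronate or sulfate or cleave esters, 4 rose and 3 fell. These were 15.4% and 11.5%, against 2.81% and 4.26% of all genes, and the list's median log2 fold change was 0.09. Ces1g, a carboxylesterase, was 573, 430, 457 and 522 in the SDH mice, against 211, 253, 313, 288 and 175 in the SD mice, with no overlap (log2 fold change 1.02 ± 0.20 (SE), adjusted p = 0.003). The other named rises were those of Ces1b (log2 fold change 0.60, adjusted p = 0.029) and of the phenol sulfotransferase Sult1a1 (log2 fold change 0.53, adjusted p = 0.023). Sult1c2, a sulfotransferase, fell, at 204, 189, 196 and 124 in the SDH mice, against 336, 431, 527, 582 and 208 in the SD mice (log2 fold change -1.16 ± 0.24 (SE), adjusted p = 0.0043). Its lowest SDH mouse was SDH 17 and its lowest SD mouse SD 5. Sult5a1 (log2 fold change -1.08, adjusted p = 0.047) and the glucuronosyltransferase Ugt2a3 (log2 fold change -0.53, adjusted p = 0.026) fell too. Sult1a1 was lost without SD 1, SD 2, SDH 13, SDH 15 or SDH 17, Ces1b without SD 1, SD 2, SDH 13, SDH 14 or SDH 15, Ugt2a3 without SD 1, SD 2, SD 3, SDH 13 or SDH 14, and Sult5a1 without any SDH mouse or SD 1, SD 2 or SD 4 (adjusted p up to 0.075, 0.086, 0.08 and 0.14). The list then held as few as 1 rise or 1 fall, and 5 falls without SD 5, and 1 rise after quantile normalization or neqc.

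The aldehyde and alcohol dehydrogenases are the family that holds the enzyme inhibited by DSF. Of 19 tested, 0 rose and 1 fell (5.26%, against 4.26% of all genes), with a median log2 fold change of 0.11. Aldh2, the mitochondrial target of the drug, was at 24800, 18500, 25000 and 16900 in the SDH mice, against 15100, 19600, 18400, 16600 and 15700 in the SD mice, and the groups overlapped (log2 fold change 0.30, adjusted p = 0.29). The 95% interval of its log2 fold change was -0.05 to 0.66. Aldh1a1, the cytosolic retinal dehydrogenase, overlapped as well (log2 fold change 0.22, adjusted p = 0.62). The 1 fall was Aldh3a2, the fatty aldehyde dehydrogenase, at 5030, 5140, 7390 and 2930 in the SDH mice, against 7010, 11200, 9490, 9110 and 8140 in the SD mice (log2 fold change -0.87, adjusted p = 0.024). The call was lost without SD 2 or SDH 17 (adjusted p up to 0.087), and without both the adjusted p was 0.18.

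Metal-binding and metal-transport genes held some of the largest rises. Mt2, a metallothionein that binds zinc and copper and is switched on by MTF1, was at 1630, 1400, 2050 and 1590 in the SDH mice, against 78.4, 187, 303, 344 and 1150 in the SD mice. All SDH mice were higher than all SD mice, and SD 5 was the closest (log2 fold change 2.55 ± 0.47 (SE), adjusted p = 0.0021, 5.87-fold). Its adjusted p was 0.057 with the 9 mice alone. Mt1, its neighbour on chromosome 8, was at 28400, 21800, 28400 and 21000 in the SDH mice, against 4460, 18800, 19900, 19500 and 19800 in the SD mice. There too the mice did not overlap, but SD 1 was far below the other SD mice and the test was not passed (log2 fold change 0.76, adjusted p = 0.11). Because the MTF1 site, the metal response element, is defined by its letters, the promoters of both genes are shown, from 250 bases before to 50 after the annotated start (RefSeq, GRCm38.p6, plus strand), with each match to TGCACNC or TGCGCNC on either strand in capitals.
Mt2 (chr8:94172368-94172667): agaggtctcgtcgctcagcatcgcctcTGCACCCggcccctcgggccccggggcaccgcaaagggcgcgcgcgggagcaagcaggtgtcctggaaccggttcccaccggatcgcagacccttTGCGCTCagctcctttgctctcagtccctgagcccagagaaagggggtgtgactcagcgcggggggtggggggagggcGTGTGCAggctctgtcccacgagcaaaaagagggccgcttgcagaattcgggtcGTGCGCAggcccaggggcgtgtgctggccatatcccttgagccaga
Mt1 (chr8:94178839-94179138): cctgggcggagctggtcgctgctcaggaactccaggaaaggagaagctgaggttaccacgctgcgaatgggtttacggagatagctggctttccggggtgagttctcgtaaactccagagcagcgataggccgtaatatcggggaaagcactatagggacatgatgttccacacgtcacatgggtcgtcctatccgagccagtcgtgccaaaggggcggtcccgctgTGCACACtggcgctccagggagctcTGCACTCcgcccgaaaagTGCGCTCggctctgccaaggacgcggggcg
The Mt2 window held 4 matches, starting at -223, -128, -50 and 4 from the start site, and the Mt1 window held 3, at -23, 2 and 20. Such a match was present in 25.7% of 32851 promoter windows of this length. Of the metal genes with a window, 2 of 3 that rose and 6 of 12 that did not held a match.

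Of 21 tested metal genes 5 rose and 0 fell in the 27-mouse fit (23.8% and 0.0%, against 2.81% and 4.26% of all genes). After quantile normalization or neqc, 1 other was called lower. Tfrc, the transferrin receptor that takes up iron, was at 1050, 3530, 1060 and 1220 in the SDH mice, against 507, 526, 546, 451 and 512 in the SD mice, with SDH 14 far above the other SDH mice and no overlap (log2 fold change 1.54 ± 0.31 (SE), adjusted p = 0.0043). Slc39a4, the zinc importer ZIP4, was at 2030, 2000, 2030 and 822 in the SDH mice, against 405, 474, 484, 448 and 898 in the SD mice. SDH 17 lay within the SD range and SD 5 was the highest SD mouse (log2 fold change 1.64, adjusted p = 0.024, and 1.04 as the mean of its detected probes). Cp, which encodes the copper-carrying ceruloplasmin (log2 fold change 0.39, adjusted p = 0.023), and Ccs, the copper chaperone of superoxide dismutase (log2 fold change 0.30, adjusted p = 0.036), rose by smaller amounts. Slc39a4 was lost without SD 1, SD 2, SDH 13, SDH 14 or SDH 15, Cp without SD 3, SDH 13 or SDH 15, and Ccs without SD 2 to SD 5 or SDH 13 to SDH 15 (adjusted p up to 0.077, 0.077 and 0.096). The count for the list was 2 without SDH 13 or SDH 15 and 3 without SD 2, SD 3 or SDH 14.

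Among 20 tested genes of cholesterol synthesis, 7 rose, 0 fell and 13 did not pass, and 18 had a positive log2 fold change, with a median of 0.63. Of all 9972 genes, 2.81% rose, 4.26% fell and 4258 had a positive log2 fold change. With the 9 mice alone 2 genes of the list rose. Sqle, squalene epoxidase, was at 2940, 2980, 4120 and 3810 in the SDH mice, against 1010, 512, 1220, 1310 and 609 in the SD mice, so that the lowest SDH mouse was above the highest SD mouse by more than the range of the SD group (log2 fold change 1.98 ± 0.31 (SE), adjusted p = 0.00054). Msmo1, a sterol methyl oxidase, was at 4930, 5630, 8570 and 5840 in the SDH mice, against 2890, 1760, 3680, 3080 and 1140 in the SD mice (log2 fold change 1.40 ± 0.27 (SE), adjusted p = 0.003). Cyp51, the lanosterol demethylase, was at 2030, 2410, 2620 and 1680 in the SDH mice, against 1080, 665, 1300, 1070 and 681 in the SD mice (log2 fold change 1.22, adjusted p = 0.0021). Hmgcs1, which makes HMG-CoA for the pathway, was at 18000, 15600, 27000 and 14100 in the SDH mice, against 10300, 7180, 13600, 10500 and 3480 in the SD mice (log2 fold change 1.15, adjusted p = 0.018). For this gene SDH 15 was the highest and SD 5 the lowest mouse. Idi1, isopentenyl diphosphate isomerase (log2 fold change 1.22, adjusted p = 0.0079), and the sterol carrier Stard4 (log2 fold change 0.70, adjusted p = 0.046) were the other named rises. Stard4 and Idi1 did not pass without SDH 17 and SD 2 (adjusted p = 0.13 and 0.075), and 4 genes of the list then passed. Hmgcs1 was lost without SDH 15 (adjusted p = 0.077), and Stard4 without SD 2, SD 5 or any SDH mouse (up to 0.15).

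Of the 7 sterol genes that rose, 5 had a promoter window, and 2 of these held the sterol response element TCACNCCA on either strand, against 1 of 12 genes with a window that did not rise. This element was present in 4.36% of 32851 windows. Both promoters are shown because these genes rose and hold the element (RefSeq, GRCm38.p6, capitals mark the match, Msmo1 on the minus strand and Hmgcs1 on the plus strand).
Hmgcs1 (chr13:119690101-119690400): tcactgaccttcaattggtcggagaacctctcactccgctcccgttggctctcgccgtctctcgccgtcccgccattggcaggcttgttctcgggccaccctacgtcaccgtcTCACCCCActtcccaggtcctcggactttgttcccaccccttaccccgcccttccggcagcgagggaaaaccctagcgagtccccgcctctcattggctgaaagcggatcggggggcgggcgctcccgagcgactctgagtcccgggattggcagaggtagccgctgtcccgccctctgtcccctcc
Msmo1 (chr8:64733529-64733828): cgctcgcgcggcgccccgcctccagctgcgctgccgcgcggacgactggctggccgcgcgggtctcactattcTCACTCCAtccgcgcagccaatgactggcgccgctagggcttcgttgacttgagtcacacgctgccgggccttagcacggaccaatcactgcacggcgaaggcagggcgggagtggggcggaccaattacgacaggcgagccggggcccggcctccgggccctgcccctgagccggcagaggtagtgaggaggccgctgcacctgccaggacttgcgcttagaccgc
The match began at -137 in Hmgcs1 and at -177 in Msmo1. In the same search, the antioxidant response element TGACNNNGC, present in 12.4% of all windows, was held by 3 of 3 NRF2 target genes that rose (Gclm, Prdx1 and Txnrd1) and by 4 of 19 that did not. All 3 rises were lost without SD 1 or without SD 2, so this split of the list is not stable. Among glutathione S-transferases, 0 of 6 that rose and 3 of 14 that did not held the element. Each list was searched for its own element, on both strands, and matches could overlap.

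Of 28 tested genes of fatty acid and triglyceride synthesis, 0 rose and 7 fell, with a median log2 fold change of -0.30. The shares over all genes were 2.81% higher and 4.26% lower. The list held 2 falls with the 9 mice alone, and 2 without SDH 17, SD 2 and SD 4. Without SDH 17 and SD 2 the median was -0.08, against -0.03 over all genes. Elovl6, an elongase of newly made fatty acids, was at 1760, 1400, 1760 and 1620 in the SDH mice, against 6070, 3180, 3830, 3090 and 3020 in the SD mice, with all SDH mice below all SD mice (log2 fold change -1.18 ± 0.25 (SE), adjusted p = 0.0062). Mogat1, which acylates monoacylglycerol, was detected in 0 of 4 SDH mice and in 5 of 5 SD mice, at 48.4, 50.7, 59.6 and 57.2 in the SDH mice, against 93.4, 185, 125, 161 and 77.4 in the SD mice, and was at least 1.87-fold lower (adjusted p = 0.0021). Thrsp, a lipogenic nuclear protein, was at 2110, 1650, 3850 and 986 in the SDH mice, against 7520, 5920, 5840, 10000 and 3010 in the SD mice (log2 fold change -1.65, adjusted p = 0.019). Srebf1, which encodes SREBP1, was at 562, 536, 624 and 499 in the SDH mice, against 1980, 1310, 1540, 1280 and 486 in the SD mice (log2 fold change -1.12, adjusted p = 0.025). Its SD 5 value was the lowest of all 9 mice, below the whole SDH group. Pklr, the liver pyruvate kinase, was at 353, 250, 300 and 311 in the SDH mice, against 893, 933, 784, 604 and 333 in the SD mice (log2 fold change -1.15, adjusted p = 0.005). Agpat2, an acyltransferase, fell by 0.56 on the log2 scale (adjusted p = 0.014). Fasn (log2 fold change -0.37, adjusted p = 0.35) and Scd1 (log2 fold change 0.26, adjusted p = 0.32), the fatty acid synthase and the stearoyl-CoA desaturase, did not pass. Without SDH 17 and SD 2 the count was 3, since Thrsp (adjusted p = 0.10), Srebf1 (0.096) and Agpat2 (0.10) were lost with 1 other. Thrsp was also lost without SDH 17 alone (0.062), and Srebf1 without SD 1, SD 2, SD 3 or SDH 17 (up to 0.071). The count was 4 without SDH 17.

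Lpl, lipoprotein lipase, which adult hepatocytes normally keep low, had one of the clearest rises. Its signal was 3510, 5410, 4730 and 4140 in the SDH mice, against 530, 858, 472, 885 and 1780 in the SD mice, with every SDH mouse well above the highest SD mouse, SD 5 (log2 fold change 2.45 ± 0.36 (SE), adjusted p = 0.00023, 5.45-fold). Among the 29 tested genes of lipid droplets, lipases and lipid uptake it was the 1 rise, beside 3 falls (3.45% and 10.3%, against 2.81% and 4.26% of all genes). Cidea, a lipid droplet protein that promotes droplet fusion, was at 55.9, 60.4, 93.4 and 87 in the SDH mice, against 790, 1540, 424, 912 and 92.2 in the SD mice (log2 fold change -2.88 ± 0.56 (SE), adjusted p = 0.0033, 7.37-fold lower). It was detected in 2 of 4 SDH mice and 5 of 5 SD mice. SD 5 overlapped with the SDH mice, and the other 4 SD mice were at least 424. The log2 fold change was -3.51 without SD 5. The other falls were those of Acot11, an acyl-CoA thioesterase, at 83.2 to 135 in SDH mice and 90.2 to 362 in SD mice (log2 fold change -1.04, adjusted p = 0.02), and of Pparg, the adipogenic receptor (log2 fold change -0.80, adjusted p = 0.042). Acot11 was lost without SD 2 or SDH 15, and Pparg without SD 2, SD 3, SD 5, SDH 13, SDH 14 or SDH 17 (adjusted p up to 0.073 and 0.12). Plin2 and Cidec did not pass (log2 fold change 0.18 and -0.50, adjusted p = 0.51 and 0.55). Without SD 2 the list held 1 fall.

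Among 22 tested apolipoprotein and lipoprotein assembly genes, 2 rose and 1 fell (9.09% and 4.55%, against 2.81% and 4.26% of all genes). Apoa4, an apolipoprotein of triglyceride-rich particles, was at 1450, 1050, 3360 and 3050 in the SDH mice, against 4640, 10500, 5920, 9920 and 12000 in the SD mice, with no overlap (log2 fold change -2.02 ± 0.36 (SE), adjusted p = 0.0016, 4.06-fold lower). Apom was at 6710, 5310, 6120 and 4660 in the SDH mice, against 2520, 2320, 3190, 3850 and 3640 in the SD mice (log2 fold change 0.89, adjusted p = 0.0016). Apoh was at 6910, 6500, 7050 and 8450 in the SDH mice, against 4300, 3660, 4980, 5160 and 3480 in the SD mice (log2 fold change 0.75, adjusted p = 0.0072), and its adjusted p was 0.062 without SDH 17 and SD 2. Osbpl3, an oxysterol-binding protein, fell too, at 104, 83.7, 105 and 73.6 in the SDH mice, against 163, 196, 192, 251 and 235 in the SD mice (log2 fold change -1.18, adjusted p = 0.0012).

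**Figure D3:**
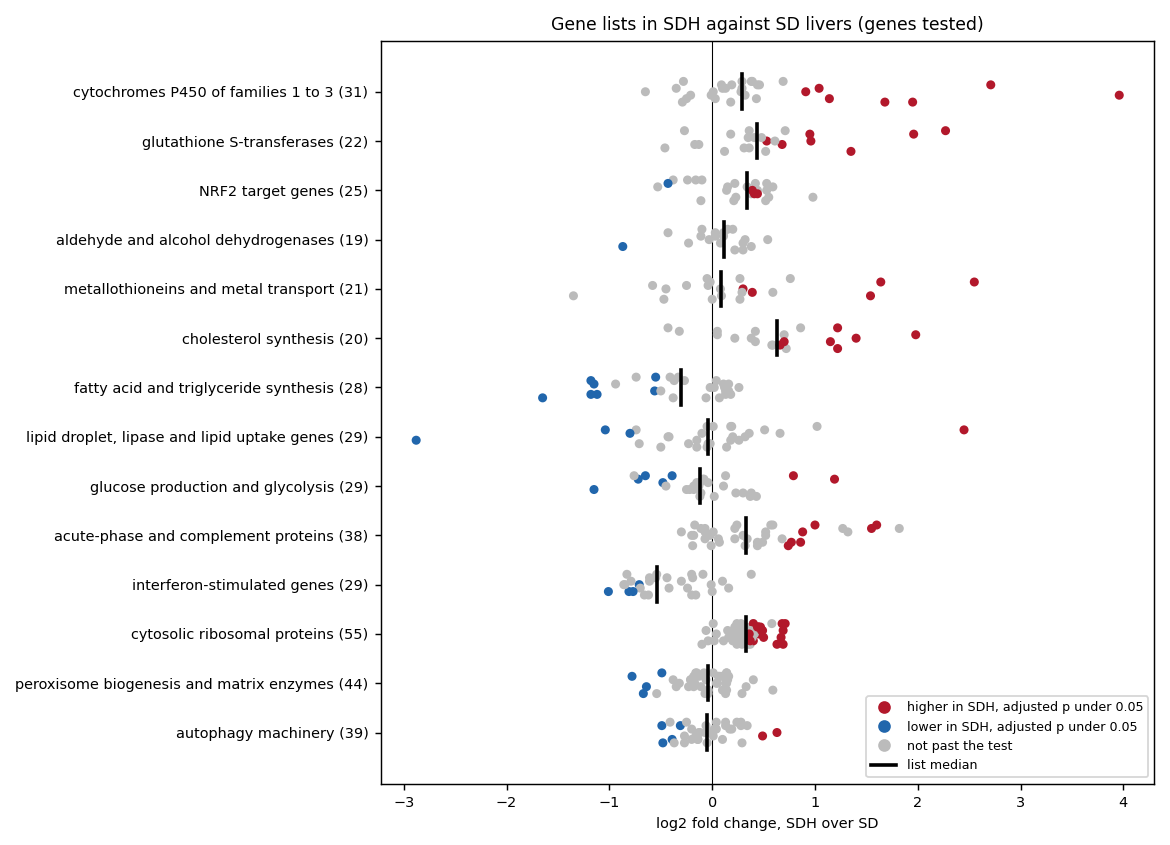
Log2 fold change SDH over SD of the tested genes of 14 lists, red for genes higher and blue for genes lower at adjusted p under 0.05, grey for the rest, with a black bar at the median. Cholesterol synthesis had the median 0.63, glutathione S-transferases 0.44, fatty acid and triglyceride synthesis -0.30 and interferon-stimulated genes -0.54, against -0.04 for all genes.

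In the growth hormone and IGF axis 2 of 20 tested genes rose and 1 fell, where 2.81% of all genes rose and 4.26% fell. Without SDH 17 and SD 2 the counts were 2 and 0. Igfbp2, a binding protein for insulin-like growth factors, was at 3630, 4640, 3540 and 4310 in the SDH mice, against 2210, 918, 1870, 1540 and 2290 in the SD mice, with no overlap (log2 fold change 1.25 ± 0.24 (SE), adjusted p = 0.003). Igfbp3 was at 113, 79.8, 114 and 82.3 in the SDH mice, against 140, 235, 148, 144 and 372 in the SD mice (log2 fold change -1.0, adjusted p = 0.0076), and its adjusted p was 0.058 without SDH 17 and SD 2. Socs3, a brake on cytokine signalling, was 1620 to 3590 in SDH mice, against 227 to 869 in SD 1 to 4 and 2300 in SD 5 (log2 fold change 1.55, adjusted p = 0.031), and it was lost without SD 1, SD 2, SDH 13, SDH 14 or SDH 15 (up to 0.091). Igf1 overlapped between the groups (log2 fold change -0.04, adjusted p = 0.9).

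Hsd17b6, an enzyme of androgen and retinol metabolism, rose strongly, at 954, 1010, 467 and 548 in the SDH mice, against 166, 120, 235, 113 and 183 in the SD mice, with no overlap (log2 fold change 2.16 ± 0.28 (SE), adjusted p = 6.4e-05, 4.47-fold). Among 21 tested male-biased liver genes, 11 had a positive and 10 a negative log2 fold change, with a median of 0.11. Of these genes, 0 fell and 2 rose (9.52%, against 2.81% of all genes), 1 of them Hsd17b6. The other was Mup20, a urinary pheromone protein, at 8350, 9250, 11900 and 10100 in the SDH mice, against 4770, 6310, 2790, 6000 and 3220 in the SD mice (log2 fold change 1.16, adjusted p = 0.025), lost without SD 3 or SDH 15 (up to 0.082). The 17 tested female-biased liver genes had 8 positive and 9 negative log2 fold changes, with a median of -0.01. Of these, 1 rose, Cyp2b10 (5.88%, against 2.81% of all genes), and 2 fell (11.8%, against 4.26%). These were Ntrk2, a neurotrophin receptor, at 112, 123, 97.9 and 98.5 in the SDH mice, against 675, 453, 201, 502 and 500 in the SD mice (log2 fold change -2.02 ± 0.21 (SE), adjusted p = 5.8e-06, 4.05-fold lower), and the water channel Aqp4, at 66.6, 62.4, 75.4 and 105 in the SDH mice, against 240, 201, 245, 165 and 192 in the SD mice (log2 fold change -1.45 ± 0.19 (SE), adjusted p = 8.4e-05). In both, every SDH mouse was below every SD mouse, and Aqp4 was detected in 2 of 4 SDH mice and 5 of 5 SD mice. Hsd3b5, a male-biased steroid dehydrogenase, ranged from 875 to 5310 in SDH mice and from 287 to 5540 in SD mice (log2 fold change 0.24, adjusted p = 0.92).

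Of 29 tested genes of glucose production and glycolysis, 2 rose and 5 fell (6.9% and 17.2%, against 2.81% and 4.26% of all genes). The median log2 fold change was -0.12, and 0.0 without SDH 17 and SD 2. With the 9 mice alone 2 rose and 0 fell. Both rises were aldolases. Aldoc was at 496, 465, 502 and 478 in the SDH mice, against 213, 215, 223, 208 and 206 in the SD mice, with tight groups (log2 fold change 1.19 ± 0.22 (SE), adjusted p = 0.002). Aldoa was at 1070, 1170, 1350 and 1660 in the SDH mice, against 765, 804, 780, 758 and 638 in the SD mice (log2 fold change 0.79, adjusted p = 0.0077). The falls were Pklr above, Gys2, the liver glycogen synthase, at 654, 551, 504 and 368 in the SDH mice, against 712, 927, 814, 714 and 1070 in the SD mice (log2 fold change -0.72, adjusted p = 0.011), Gckr, the glucokinase regulator, at 920, 1000, 919 and 819 in the SDH mice, against 1880, 1560, 1350, 1220 and 1260 in the SD mice (log2 fold change -0.65, adjusted p = 0.0033), Fbp1, a gluconeogenic phosphatase (log2 fold change -0.48, adjusted p = 0.02), and Pcx, pyruvate carboxylase, named after its value was seen (log2 fold change -0.39, adjusted p = 0.0097). Fbp1 was lost without SDH 17 (adjusted p = 0.072), and Gys2 and Fbp1 without SDH 17 and SD 2 (0.088 and 0.12), when the list held 3 falls.

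Of 55 tested genes of cytosolic ribosomal proteins, 18 rose and 0 fell (32.7% and 0.0%, against 2.81% and 4.26% of all genes). Of the 55, 52 had a positive log2 fold change, and the list's median was 0.33. Rpl36a was at 5800, 5080, 5740 and 5290 in the SDH mice, against 3920, 2810, 3800, 3250 and 3050 in the SD mice (log2 fold change 0.71 ± 0.11 (SE), adjusted p = 0.00042). Rpl35a (log2 fold change 0.69, adjusted p = 0.0059) and Rpl12 (log2 fold change 0.69, adjusted p = 0.031) rose by a like amount, Rpl12 not without SD 1, SD 2, SD 3, SDH 13 or SDH 15 (up to 0.095). The number of rises was 7 after quantile normalization or neqc, 6 without SDH 17 and SD 2, 8 without SD 2 or SDH 15 and 11 without SD 1 or SDH 13. Close copies and pseudogenes are common in this family, and probe specificity was not tested.

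Acute-phase and complement proteins, which the liver secretes in inflammation, rose in 7 of 38 tested genes and fell in 0. These were 18.4% and 0.0%, against 2.81% and 4.26% of all genes, and the list's median log2 fold change was 0.33. Cfb, complement factor B, was at 3040, 3020, 3070 and 3100 in the SDH mice, against 1700, 1530, 1850, 1810 and 1550 in the SD mice (log2 fold change 0.86 ± 0.16 (SE), adjusted p = 0.0023). Serpina3n, a serine protease inhibitor, was at 22700, 17700, 20900 and 18700 in the SDH mice, against 6750, 10800, 9090, 8610 and 17400 in the SD mice (log2 fold change 1.0, adjusted p = 0.015). For Serpina3n and for Itih3 (log2 fold change 0.77, adjusted p = 0.011) SD 5 was close to the SDH mice. Apcs, serum amyloid P, was highest in SDH 17 at 5780, with 1580 to 2100 in the other SDH mice, against 557 to 1760 in SD mice (log2 fold change 1.6, adjusted p = 0.02). It was lost without SD 2 or SDH 17 (up to 0.071), and Steap4 (log2 fold change 0.88, adjusted p = 0.035) without SD 1, SD 2, SD 3, SD 4 or SDH 17 (up to 0.13). Saa1, the serum amyloid that rises most in acute inflammation, was 222 to 1800 in SDH mice and 83.2 to 1800 in SD mice (log2 fold change 1.27, adjusted p = 0.23). The number of rises was 4 without SD 2 and 11 without SD 5.

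Of 29 tested inflammatory genes 3 rose and 4 fell (10.3% and 13.8%, against 2.81% and 4.26% of all genes). Without SDH 17 and SD 2 the counts were 2 and 0. The chemokine Cxcl1 was at 22100, 15200, 16400 and 6020 in the SDH mice, against 871, 5170, 5910, 5090 and 10100 in the SD mice (log2 fold change 1.67, adjusted p = 0.048). It was lost without any of SD 1 to SD 4 or SDH 13 to SDH 15 (up to 0.12), and the list then held 1 rise. Icam1, an adhesion molecule, was 536 to 786 in SDH mice, against 287 to 372 in SD 1 to 4 and 612 in SD 5 (log2 fold change 0.85, adjusted p = 0.011). The chemokines Ccl4 and Cxcl10 were lower in all SDH mice. Ccl4 was at 67.7, 66.3, 58.5 and 54.3 in the SDH mice, against 80.2, 231, 90.3, 205 and 225 in the SD mice (log2 fold change -1.29, adjusted p = 0.0094). Cxcl10 was at 70.9, 68.2, 50.7 and 53.3 in the SDH mice, against 71.5, 220, 80.1, 124 and 226 in the SD mice (log2 fold change -1.10, adjusted p = 0.011). Ccl4 was detected in 1 SDH mouse and Cxcl10 in 2, both in all 5 SD mice, and neither passed without SDH 17 and SD 2 (adjusted p = 0.065 and 0.073).

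Interferon-stimulated genes had a negative log2 fold change for 26 of 29 tested, with a median of -0.54. Of the 29, 4 passed the test, all lower (13.8%, against 4.26% of all genes). They were Gbp3 (log2 fold change -1.01, adjusted p = 0.035), Oasl1 (log2 fold change -0.81, adjusted p = 0.024), the transcription factor Irf7 (log2 fold change -0.77, adjusted p = 0.029) and Dhx58 (log2 fold change -0.71, adjusted p = 0.043). Oasl1 was at 173, 170, 173 and 182 in the SDH mice, against 214, 274, 240, 328 and 577 in the SD mice. SD 5 was the highest mouse for each of the 4. None passed without SDH 17 and SD 2 or without SDH 15, and Gbp3, Irf7 and Dhx58 were lost without SD 2 or SD 5 as well (adjusted p up to 0.099, 0.10 and 0.12). Irf7 and Dhx58 were also lost without SDH 17, Gbp3 without SDH 14, and Dhx58 without SD 1 or SDH 13. Kupffer cell and macrophage markers summed to 8620 to 11200 in SDH mice and to 6810 to 18900 in SD mice, with 0 of 19 tested genes called. Lymphocyte markers summed to 1090 to 1400 in SDH mice and to 1150 to 1880 in SD mice, with 0 of 9 called. SD 4 and SD 5 had the highest sums of both, and their part in the falls was not tested. In whole liver, fewer cells of a type and less RNA per cell cannot be told apart.

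Of 44 tested peroxisomal genes 0 rose and 4 fell (0.0% and 9.09%, against 2.81% and 4.26% of all genes). Acox3, an oxidase of branched fatty acids, was at 209, 256, 225 and 181 in the SDH mice, against 395, 443, 280, 294 and 331 in the SD mice (log2 fold change -0.67, adjusted p = 0.0034). Nudt12, an NADH hydrolase (log2 fold change -0.78, adjusted p = 0.0036), Mpv17, known from the inner mitochondrial membrane (log2 fold change -0.49, adjusted p = 0.0049), and Ddo, D-aspartate oxidase (log2 fold change -0.64, adjusted p = 0.023), were the others, Ddo not without SD 2, SD 4, SDH 13, SDH 14 or SDH 15 (up to 0.066). Of 39 autophagy genes 2 rose and 4 fell (5.13% and 10.3%, against 2.81% and 4.26% of all genes). Atg10 was at 430, 424, 352 and 404 in the SDH mice, against 617, 556, 542, 621 and 495 in the SD mice (log2 fold change -0.49, adjusted p = 0.0043). Atg7 also fell (log2 fold change -0.48, adjusted p = 0.023), while Map1lc3b (log2 fold change 0.63, adjusted p = 0.049) and the lysosomal transcription factor Tfe3 (log2 fold change 0.49, adjusted p = 0.023) rose. Atg7 was lost without SD 1, SD 2, SDH 13 or SDH 17, Map1lc3b without SD 1, SD 2, SD 4 or any SDH mouse, and Tfe3 without SD 2, SD 4 or SDH 15 (up to 0.061, 0.14 and 0.075). Without SDH 17 and SD 2 the autophagy list held 0 rises and 1 fall. The receptor Sqstm1 did not pass (log2 fold change 0.19, adjusted p = 0.32).

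Among 16 clock genes 0 rose and 1 fell (0.0% and 6.25%, against 2.81% and 4.26% of all genes). This was Per2, at 115, 227, 182 and 755 in the SDH mice, against 935, 966, 660, 707 and 1260 in the SD mice, where SDH 17 lay within the SD range (log2 fold change -1.85, adjusted p = 0.036), lost without SD 1, SD 2, SD 5, SDH 13, SDH 14 or SDH 15 (up to 0.12). Of 17 tested glucocorticoid-responsive genes 3 rose and 0 fell (17.6% and 0.0%, against 2.81% and 4.26% of all genes). The median log2 fold change was 0.43. Gadd45b, a stress gene, was 316 to 415 in SDH 13 to 15 and 80.3 in SDH 17, against 60.1 to 110 in SD mice (log2 fold change 1.67, adjusted p = 0.02), lost without SDH 13 or SDH 15 (up to 0.077). Fkbp5, a receptor chaperone, was 711 to 1200 in SDH mice, against 173 to 436 in SD 1 to 4 and 1150 in SD 5 (log2 fold change 1.16, adjusted p = 0.039), lost without SD 1, SD 2, SD 3 or any SDH mouse (up to 0.10). The third was Mt2.

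Of 8 tested cholangiocyte markers 2 rose and 1 fell, where 2.81% of all genes rose and 4.26% fell. Tff3, a secreted trefoil peptide, was at 711, 528, 1130 and 1480 in the SDH mice, against 56.7, 78.2, 63.6, 150 and 617 in the SD mice (log2 fold change 2.88 ± 0.54 (SE), adjusted p = 0.0025, 7.34-fold). It was detected in 4 of 4 SDH mice and 3 of 5 SD mice, and the lowest SDH mouse, SDH 14, was below SD 5. Sox9, a bile duct transcription factor, was at 154, 126, 140 and 214 in the SDH mice, against 79.9, 88.8, 61.5, 71 and 113 in the SD mice (log2 fold change 0.94, adjusted p = 0.006). Wfdc2, a secreted protease inhibitor, was at 328, 298, 308 and 313 in the SDH mice, against 1130, 1230, 1470, 1720 and 404 in the SD mice, with SD 5 close to the SDH mice (log2 fold change -1.78 ± 0.28 (SE), adjusted p = 0.00055, 3.44-fold lower). The summed cholangiocyte signal was 3920 to 6580 in SDH mice and 4010 to 6860 in SD mice.

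Outside these lists, Dnaic1, a dynein intermediate chain of cilia, was detected in 4 of 4 SDH mice and 0 of 5 SD mice, at 338, 528, 190 and 148 in the SDH mice, against 47, 46.4, 41.7, 52.7 and 56.5 in the SD mice. It was at least 4.05-fold higher (adjusted p = 5.8e-06). A2ml1, an alpha-2-macroglobulin-like protease inhibitor, was at 4120, 4820, 4120 and 5510 in the SDH mice, against 1400, 1560, 1050, 1650 and 2950 in the SD mice (log2 fold change 1.51 ± 0.23 (SE), adjusted p = 0.00039). Slco2a1, a prostaglandin transporter, was at 1700, 2510, 1470 and 1070 in the SDH mice, against 866, 471, 746, 443 and 436 in the SD mice (log2 fold change 1.5 ± 0.20 (SE), adjusted p = 8.4e-05). In all 3 genes every SDH mouse was above every SD mouse, as the rule that picked them required. Avpr1a, the vasopressin receptor of hepatocytes, was 1720 to 4560 in SDH mice and 626 to 1880 in SD mice (log2 fold change 1.49, adjusted p = 0.0021).

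Among the other large falls was Dct, a melanin-pathway enzyme, at 54.8, 55.6, 69.7 and 58.2 in the SDH mice, against 298, 505, 347, 387 and 79.4 in the SD mice (log2 fold change -2.22 ± 0.40 (SE), adjusted p = 0.0018, 4.66-fold lower). It was detected in 1 of 4 SDH mice and 5 of 5 SD mice, and SD 5 was close to the SDH mice. Tsc22d1, a transcriptional regulator, was at 248, 224, 193 and 229 in the SDH mice, against 765, 1030, 518, 683 and 349 in the SD mice (log2 fold change -1.49 ± 0.27 (SE), adjusted p = 0.0021). Gnpda1, an enzyme of glucosamine breakdown, was at 195, 257, 151 and 266 in the SDH mice, against 548, 510, 541, 550 and 386 in the SD mice (log2 fold change -1.25, adjusted p = 0.00061). Zap70, a T cell kinase, was at 290, 352, 405 and 534 in the SDH mice, against 844, 726, 714, 967 and 986 in the SD mice (log2 fold change -1.12, adjusted p = 0.0013), and the lymphocyte sums are given above. Gm4956, a predicted gene, was at 196, 229, 172 and 179 in the SDH mice, against 802, 589, 758, 709 and 368 in the SD mice (log2 fold change -1.69, adjusted p = 0.0022). Probes ILMN_3158725 (log2 fold change -2.31, adjusted p = 8.4e-05) and ILMN_3079461 (log2 fold change -1.81, adjusted p = 0.00013) are not paired with a gene and fell in all 4 SDH mice below all 5 SD mice.

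Cyp2b13 (log2 fold change -0.25, adjusted p = 0.83), Hk2 (log2 fold change -0.12, adjusted p = 0.91) and Cyp7b1 (log2 fold change 0.37, adjusted p = 0.49) overlapped between the groups. Hk2 was 92.3 to 114 in SDH 13 to 15 and 625 in SDH 17, against 97.3 to 467 in SD mice. No probe was paired with Raet1b in the annotation used, so that gene was not analysed here.

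For the remaining lists, the counts higher and lower stand against shares of 2.81% higher and 4.26% lower over all genes. They were 2 and 1 of 37 tested for fatty acid oxidation, 0 and 1 of 26 for bile acid genes, 0 and 1 of 19 for branched-chain amino acid breakdown and 0 and 2 of 20 for tryptophan and NAD metabolism. They were 2 and 3 of 40 for the urea cycle and amino acid breakdown, 2 and 0 of 69 for oxidative phosphorylation, 1 and 0 of 41 for the proteasome, 0 and 3 of 43 for lysosomal proteins and 2 and 0 of 30 for the unfolded protein response. For extracellular matrix they were 0 and 2 of 42, for pericentral genes 2 (9.09%) and 4 (18.2%) of 22, for periportal genes 2 and 2 of 22 (9.09% each), and for nuclear receptors 2 and 2 of 30 (6.67% each). Without SDH 17 and SD 2 the pericentral counts were 3 and 0, the periportal 2 and 1 and those of nuclear receptors 1 and 0. Of 17 endothelial markers 0 rose and 2 fell, and of 12 tested hepatocyte markers 2 rose (16.7%), or 1 without SDH 17 and SD 2, while 0 of 29 cell cycle, 0 of 8 adipocyte, 0 of 6 erythroid and 0 of 12 tested acinar genes were called by limma. Most of these small counts moved by more than 1.5 times when a mouse was left out, oxidative phosphorylation to 0 without SD 2 or SDH 17 and to 9 without SD 4, and pericentral falls to 0 without SD 2.

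In SDL mice 27 genes were higher (0.271%) and 36 lower (0.361%) than in SD mice. Both doses were set against the same 5 SD mice, so their values are not independent. For the 280 genes higher in SDH, the median log2 fold change was 0.60 for SDH over SD and 0.32 for SDL over SD, and for the 425 lower genes it was -0.51 and -0.28. These genes were chosen by their test in SDH over SD, which by itself makes that median the larger in size. The gap between the medians therefore does not measure an effect of dose. Directly compared, SDH and SDL mice differed in 0 of 9972 genes at an adjusted p under 0.05 by limma (845 genes, or 8.47%, at an unadjusted p under 0.05).

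Cyp2b10 was at 953 to 2130 (median 1200) in SDL mice, and the log2 difference SDH over SDL was 0.44 with a 95% interval of -0.67 to 1.54. Slco2a1 was at 1350 to 1970 (median 1500) in SDL mice, and its difference was 0.05 with a 95% interval of -0.37 to 0.46. Slc39a4 was at 1730 to 2820 (median 2030), with a difference of -0.37 with a 95% interval of -1.27 to 0.53. Lpl was at 917 to 1750 (median 1480) in SDL mice, below every SDH mouse, and the difference was 1.67 with a 95% interval of 0.93 to 2.40 (unadjusted p = 8.6e-05). Wfdc2 stood at 588 to 893 (median 692), above every SDH mouse, and the difference was -1.21 with a 95% interval of -1.79 to -0.64. Mt2 was at 381 to 958 (median 536) in SDL mice, again below every SDH mouse (1.47 with a 95% interval of 0.49 to 2.44). For Gsta2, with 528 to 1950 (median 1050), the groups overlapped (1.26 with a 95% interval of 0.36 to 2.16). Adjusted over all genes, none of these differences passed (adjusted p from 0.43 for Lpl and 0.45 for Wfdc2 to 0.96 for Slco2a1). Without SD 5, Wfdc2 and Tmie passed (adjusted p = 0.0093 and 0.022), with a log2 difference of -1.21 and -0.91. SD 5 belongs to neither of the groups compared, and the difference of Wfdc2 was -1.21 with SD 5 in the fit too. Leaving SD 5 out changes the spread that the groups share in the test.

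**Figure D4:**
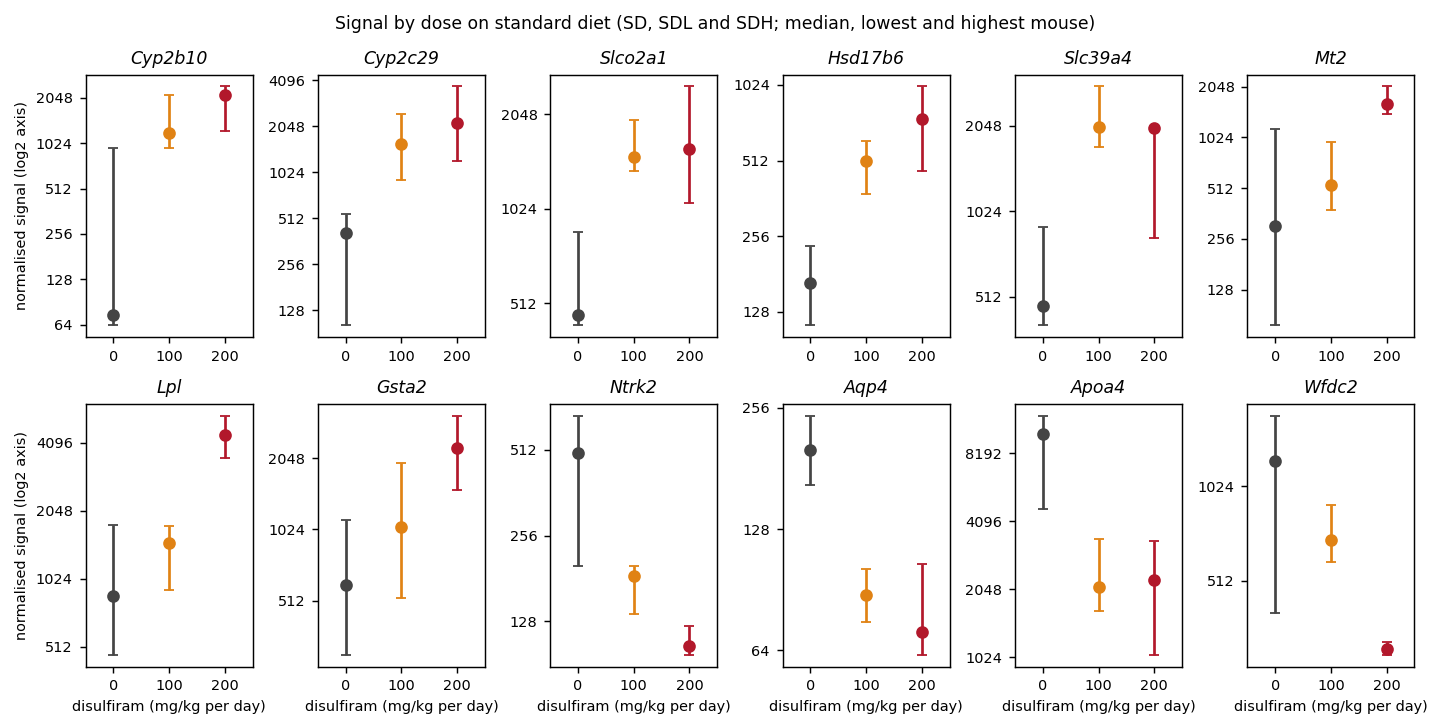
Normalized intensity (log2 axis) of 12 genes at 0, 100 and 200 mg/kg DSF per day on SD, the point at the median and the bar from the lowest to the highest mouse. Cyp2b10 reached a median of 1200 at the low dose, whereas Lpl had 1480 there and 3510 to 5410 in the single SDH mice.

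On the high-fat diet the high dose raised 144 genes (1.44%) and lowered 293 (2.94%, together 4.38%) in HFDH mice against HFD mice, which share no mouse with SDH and SD. Of the 280 genes higher in SDH, 208 (74.3%) had a positive log2 fold change there too, against 49.1% of all genes, and 39 passed the test. These 39 were 13.9% of the SDH rises and 27.1% of the HFDH rises, and 2 genes went the other way. Of the 425 lower genes, 375 (88.2%) were negative, against 50.9% of all genes, and 92 passed, which was 21.6% of the SDH falls and 31.4% of the HFDH falls, with 1 the other way.

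Cyp2b10 was at 1510 to 5530 in HFDH mice and 155 to 226 in HFD mice (log2 fold change 3.97, adjusted p = 9.6e-05). Ntrk2 was at 74.8 to 97.1 in HFDH mice and 257 to 392 in HFD mice (log2 fold change -2.0, adjusted p = 3.3e-06), and Wfdc2 was at 246 to 394 in HFDH mice and 1410 to 2700 in HFD mice (log2 fold change -2.59, adjusted p = 3.3e-06). The 95% interval of the difference between the diets ran from -1.57 to 1.56 for Cyp2b10 and from -0.64 to 0.61 for Ntrk2. Lpl was at 500 to 1500 in HFDH mice and 341 to 1310 in HFD mice, with overlapping groups (log2 fold change 0.43, adjusted p = 0.53). Hsd17b6 overlapped too, at 256 to 690 in HFDH mice and 254 to 494 in HFD mice (log2 fold change 0.53, adjusted p = 0.28). The difference between the diets was 2.02 ± 0.50 (SE), adjusted p = 0.11, for Lpl and 1.63 ± 0.39 (SE), adjusted p = 0.1, for Hsd17b6. The cholesterol synthesis list had a median of 0.63 on SD and 0.03 on the high-fat diet, and the median difference was not tested.

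The response itself differed between the diets, as the difference of the differences, for 6 genes (0.0602%), with 4 higher (0.0401%) and 2 lower (0.0201%) on SD. Fam25c was 1380, 1460, 1810 and 2200 in the SDH mice, against 486, 594, 490, 333 and 604 in the SD mice, and 1360, 1100, 1250 and 801 in the HFDH mice, against 1010, 1310, 1290, 975 and 1220 in the HFD mice. It rose on SD (log2 fold change 1.78 ± 0.20 (SE), adjusted p = 8.1e-06), and on the high-fat diet its log2 fold change was -0.06 (adjusted p = 0.9). The difference between the diets was 1.84 ± 0.28 (SE), adjusted p = 0.0034. Afm, the vitamin E-binding plasma protein afamin, was 2040, 2160, 2170 and 2560 in the SDH mice, against 1080, 776, 1210, 1170 and 710 in the SD mice, and 1260, 1450, 1330 and 925 in the HFDH mice, against 1340, 1320, 1600, 1210 and 949 in the HFD mice (1.25 ± 0.23 (SE), adjusted p = 0.027). The transporter gene Mfsd4b1 was 666, 626, 691 and 533 in the SDH mice, against 1180, 906, 982, 796 and 836 in the SD mice, and 1020, 963, 1130 and 1110 in the HFDH mice, against 663, 892, 804, 714 and 826 in the HFD mice, so it fell on SD and rose on the high-fat diet (-1.01 ± 0.15 (SE), adjusted p = 0.0034). Marchf8, a ubiquitin ligase, was 249, 257, 317 and 347 in the SDH mice, against 237, 255, 240, 245 and 183 in the SD mice, and 138, 167, 170 and 145 in the HFDH mice, against 289, 232, 261, 267 and 198 in the HFD mice. It fell on the high-fat diet, and on SD its adjusted p was 0.089 (1.01 ± 0.17 (SE), adjusted p = 0.0091). The amino acid transporter Slc16a10 was 266, 300, 259 and 346 in the SDH mice, against 393, 402, 437, 325 and 421 in the SD mice, and 338, 377, 352 and 586 in the HFDH mice, against 294, 248, 209, 278 and 309 in the HFD mice. It rose on the high-fat diet, with an adjusted p on SD of 0.055 (-1.04 ± 0.20 (SE), adjusted p = 0.027). Probe ILMN_2771368, with no paired gene, rose on SD and fell on the high-fat diet (1.25 ± 0.23 (SE), adjusted p = 0.027). The differences of Fam25c, Mfsd4b1 and Marchf8 passed without any single SDH or SD mouse. Those of Slc16a10 and ILMN_2771368 were lost without SD 1, SD 2, SD 3 or SDH 15 (adjusted p up to 0.072 and 0.06), and that of Afm without SD 2, SDH 15 or SDH 17 (up to 0.06).

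**Figure D5:**
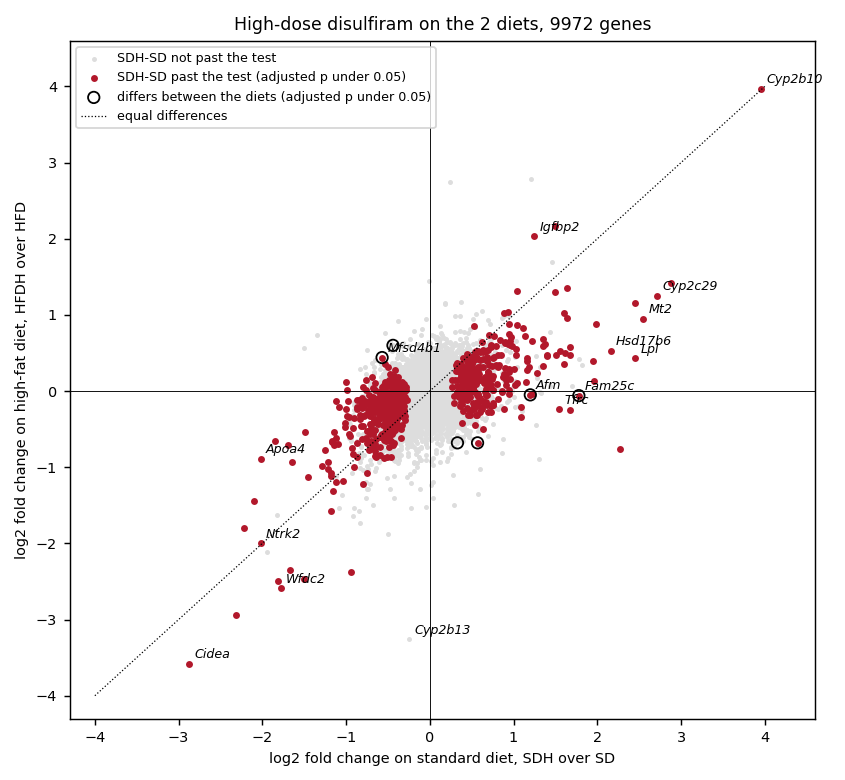
Log2 fold change of each gene on SD (SDH over SD, horizontal) against that on the high-fat diet (HFDH over HFD, vertical), with circles around the 6 genes whose responses differed. Fam25c lay at 1.78 and -0.06, and Mfsd4b1 at -0.57 and 0.44.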

How the data were processed

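Liver RNA was hybridised to Illumina MouseRef-8 v2 BeadChips, 1 or 2 arrays a mouse, and each replicate was a separate mouse. From GenomeStudio (version 2011.1) the authors deposited a linear intensity for each probe, and the values show neither background subtraction nor scaling between arrays. The authors also deposited a detection p-value for each probe on each array. The second deposited table holds the authors' score, the Z-normalized log10 intensity, which was used only in alternatives, since its labels do not pair with the intensity columns of the DSF groups. The chips and their positions were not given in the sources used here, so no chip effect could be fitted.

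Intensities were converted to log2, Z-normalized per array, and rescaled to the mean SD (1.89) and mean (6.92) of the arrays of 27 mice. A probe had to be detected (p under 0.05) in 5 or more mice, which left 13301, and each of 9972 genes was represented by its brightest probe on average. Of 25697 probes, 23978 carried 1 gene symbol and 1719 carried none. The model was fitted in limma (version 3.58.1, under R 4.3.3) with a mean for each of 6 groups, moderated tests on 25.23 degrees of freedom, two-sided, and Benjamini-Hochberg adjustment over all genes. All adjusted p of single genes, standard errors and 95% intervals come from this model, which assumes a spread common to the groups. A fold given as at least a value raises undetected signals to the lowest detected signal of their array. Precision is limited by 4 mice against 5 and by signal over background. Tested on simulated data for this comparison, the model called 180 of 200 genes shifted by 1 on the log2 scale (90.0%) with 8 false calls among 9972 genes, and 197 (98.5%) of those shifted by 2, also with 8. The simulated noise was normal and independent between genes and mice, with 1 spread per gene. It held no outlying mice and no mice with pancreatic transcripts, so these rates do not carry over to the real mice. Counts of gene lists are descriptions, with no test of a list.

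The members, the lists and the tests were chosen with earlier results of these data known, and most lists were taken over from an earlier analysis of the series. Genes were named by rule, as the 15 largest rises and 15 largest falls past the test with and without SDH 17 and SD 2 and not overlapping between the groups, up to 6 genes past the test and 2 others of each list described, the genes the study singles out, and up to 5 each way for the diet difference and for the doses. Promoters are RefSeq windows. Alternatives were other normalizations (quantile, neqc), detection filters, probe summaries, array weights, an intensity trend, the 9 mice alone, all 30 mice, the scores with and without the replicate number as a block, the study's own criteria, and leaving out each mouse in turn.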

Additional observations from a re-analysis of the deposited data

Results flagged for a closer look

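Single mice lay far from their group (Dixon's test, 95% critical value) in 23 of 252 groups of the named genes, or 9.13%, where chance flags about 1 in 20. SD 5 accounted for 12 of these, SDH 17 for 7, and SDH 14 and SD 1 for 2 each. SD 5 was high for Cyp2b10 (960, against 63.3 to 99.4 in the other SD mice), Nqo1 (192, against 130 to 140), Slc39a4 (898), Steap4 (101) and Itih3 (8940). It was low for Dct (79.4, against 298 to 505), Gnpda1 (386), Cyp2c50 (1520, against 7800 to 10700), Cyp2c37 (2130, against 10000 to 12300), Agpat2 (2390), Aldoa (638) and Marchf8 (183). SDH 17 was high for Hk2 (625, against 92.3 to 114 in the other SDH mice) and Steap4 (228), and low for Sult1c2 (124), Gclm (1450, against 2070 to 2110), Cyp3a11 (6930, against 12600 to 14300), Slc39a4 (822) and Gadd45b (80.3). SDH 14 was high for Tfrc (3530, against 1050 to 1220) and low for Sult1a1 (11200). SD 1 was low for Mt1 (4460, against 18800 to 19900) and Cxcl1 (871). The acinar sum was 136000 in SDH 17 and 3990 in SD 5, and its part in these values was not tested.

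The response to the high dose differed between the diets for 6 genes by the test of the difference itself, the log2 fold change of SDH over SD minus that of HFDH over HFD. The difference was 1.84 for Fam25c, 1.25 for Afm, 1.25 for the probe ILMN_2771368 and 1.01 for Marchf8, each higher on SD, and -1.04 for Slc16a10 and -1.01 for Mfsd4b1, each lower on SD, with adjusted p of 0.0034, 0.027, 0.027, 0.0091, 0.027 and 0.0034.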

How the results depend on the processing

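The counts of genes higher and lower in SDH mice (280 and 425 in the fit of 27 mice) moved most with the mice in the fit. They were 62 and 61 with the 9 mice alone, 0 and 7 with all 30 mice (1166 genes at an unadjusted p under 0.05 by limma), 153 and 187 without SDH 17 and SD 2, 59 and 48 without these 2 in a fit of the SDH and SD mice alone, and 120 and 135 without SDH 17, SD 2 and SD 4, a setting chosen after seeing the data. With array weights they were 487 and 697. Leaving out each mouse in turn gave 130 to 334 higher and 203 to 490 lower, with 181 and 288 without SD 1, 130 and 203 without SD 2 and 140 and 205 without SDH 15. Under quantile normalization (324 and 340) and neqc (311 and 315) the higher genes were 48.8% and 49.7% of the calls, against 39.7% in the fit of 27 mice. The other filters, probe summaries, the intensity trend, the scores of all samples and the study's criteria gave counts within 1.5 times. Fits that leave out mice have fewer mice, and beyond that the cause was not tested.

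The number of genes whose response differed between the diets was 6, with 10 under quantile normalization, 13 under neqc, 0 with all 30 mice, 7 without SDH 17 and SD 2 and 3 to 32 when each mouse was left out in turn. It was 32 without SD 4, 15 without SDH 13, 13 without SD 5 and 3 without SD 2 or SDH 15. SDH and SDL mice differed in 0 genes with 27 mice, under quantile normalization, neqc and no filter and with all 30 mice, in 0 to 2 when each mouse was left out (2 without SD 5), and in 2, Dnaic1 and Wfdc2, with array weights.

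The replicate numbers were shared by SDH and SD samples of the score table for numbers 1, 2, 3 and 5, and did not pair the mice, as the correlations of their deviations were 0.00591, -0.0664, 0.199 and 0.202 and 2 of 4 samples correlated best with their own number. In these samples the scores gave 17 higher and 9 lower genes with the replicate number as a block, and 26 and 19 without the block.

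With all 30 mice, the fit held the SDH 16 array, whose highest signal was 60 and whose median correlation with the other arrays was -0.00984. The median log2 fold change of all genes was then -0.28 against -0.04. In that fit 36 of 126 named genes changed sign, which says little about the drug. The log2 fold change was then -0.60 for Gstm1, -0.24 for Gstp1, -0.0029 for Gstm4, -0.84 for Gsto1, -1.31 for Prdx1, -0.54 for Gclm, -0.55 for Cyp1a2, -0.91 for Cyp3a11, -0.25 for Cyp2c50, -0.33 for Cyp2c37, -0.64 for Ces1b, -0.30 for Sult1a1, -1.30 for Aldh2 and -0.99 for Aldh1a1. It was -0.37 for Mt1, -0.82 for Cp, -0.11 for Ccs, -1.07 for Scd1, -1.05 for Plin2, -0.38 for Apom, -0.58 for Apoh, -0.46 for Hmgcs1, -0.31 for Stard4, -0.59 for Cyp7b1, -0.61 for Hsd3b5, -0.14 for Mup20 and -0.22 for Aldoa. It was -0.27 for Rpl36a, -0.35 for Rpl35a, -0.19 for Rpl12, -0.49 for Sqstm1, -0.16 for Map1lc3b, -0.59 for Tfe3, -0.22 for Serpina3n, -0.82 for Itih3 and 0.30 for Hk2. Of the genes that did not pass, a few turned sign elsewhere. Leaving out each mouse in turn gave -0.77 to 0.23 for Hk2 (positive without SD 5, SDH 13, SDH 14 or SDH 15), -0.44 to 0.68 for Hsd3b5 (negative without SD 5 or SDH 15, and -0.07 with array weights) and -0.01 to 0.25 for Nqo1 (negative without SDH 13). Hmox1 had 0.09 without SDH 17, SD 2 and SD 4, and Aldh1a1 had -0.06 with array weights and -0.02 to 0.31 with each mouse left out (negative without SD 5). Igf1 had 0.07 without SDH 17 and SD 2, in the SDH and SD mice alone too, 0.07 with array weights, and 0.04 and 0.05 without SD 5 and SDH 17. Of the 105 named genes past the test, 58 lost the call with the 9 mice alone, 72 in those mice without SDH 17 and SD 2, 36 without SDH 17 and SD 2 in the larger fit, 52 without SD 4 as well, 11 under quantile normalization and 13 under neqc. The 15 largest rises and 15 largest falls were picked to pass without SDH 17 and SD 2 in the larger fit, so they could not lose the call there. Over all genes, 260 of the 705 calls stood in that fit. The fold moved by over 1.5 times under neqc for Cidea (-3.58), Dct (-2.96), Dnaic1 (3.3) and Tff3 (3.56), without SDH 17 and SD 2 for Gadd45b (2.31), and without SD 4 as well for Cidea (-2.2) and Per2 (-2.44), all on the log2 scale.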
